A study of Mus musculus with 6 samples.

Results

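The genes Il21r, Il2rg, Il4ra, Il13ra1, Il10ra, Il10rb, Il6ra, Il6st, Il17ra and Il1rl2 encode chains of interleukin receptors. They are 10 of the 45193 genes in the count table, and all 10 were among the 12011 genes with enough reads to be tested. They were chosen by name with the difference between the genotypes in these same libraries already known, so their values in that comparison are given as a description, without a test. The libraries came from bone marrow-derived macrophages, which are obtained by culturing mouse marrow precursors with the growth factor CSF-1. The 3 RXRKO libraries came from mice with RXRa fl/fl alleles, LysMCre and RXRb-/-, in which Cre is made from the lysozyme M locus, Lyz2, active in myeloid cells. The 3 WT libraries came from C57BL/6J mice with no Cre described. Cells of both genotypes were grown for 6 days with 20% FBS and 30% L929-conditioned medium, moved to serum-free medium and given the solvent DMSO for 3 hours, so no receptor ligand was added. The labels call the replicates biological without giving the animals, their age or their sex, and p-values therefore measure the spread between these libraries.

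Interleukin receptors are built from paired transmembrane chains. Class I chains have no kinase of their own and work through bound JAK kinases and STAT factors. The common gamma chain, encoded by Il2rg, pairs with Il21r in the interleukin 21 receptor and with Il4ra in the type I interleukin 4 receptor. Il4ra pairs with Il13ra1 in the type II receptor, and gp130, encoded by Il6st, pairs with Il6ra. Il10ra and Il10rb are class II chains and form the interleukin 10 receptor, which restrains macrophage activation through STAT3. Il17ra is shared by several interleukin 17 receptors. Il1rl2 is the interleukin 36 receptor, which pairs with Il1rap and signals through MyD88.

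Il21r and Il4ra are neighbours on chromosome 7 and are the chains on which most of the results below turn, so their promoter windows are shown. Each holds 250 bases before the RefSeq start and 50 bases from it, on the plus strand of GRCm38.p6, at chr7:125603179-125603478 for Il21r and chr7:125552021-125552320 for Il4ra. Capitals mark a match to one of the motifs searched.
Il21r: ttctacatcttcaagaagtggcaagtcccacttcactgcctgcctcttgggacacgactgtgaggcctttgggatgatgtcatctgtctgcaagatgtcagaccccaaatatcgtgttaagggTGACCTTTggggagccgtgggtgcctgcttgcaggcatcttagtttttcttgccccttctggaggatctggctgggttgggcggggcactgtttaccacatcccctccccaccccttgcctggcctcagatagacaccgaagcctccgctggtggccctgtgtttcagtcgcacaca
Il4ra: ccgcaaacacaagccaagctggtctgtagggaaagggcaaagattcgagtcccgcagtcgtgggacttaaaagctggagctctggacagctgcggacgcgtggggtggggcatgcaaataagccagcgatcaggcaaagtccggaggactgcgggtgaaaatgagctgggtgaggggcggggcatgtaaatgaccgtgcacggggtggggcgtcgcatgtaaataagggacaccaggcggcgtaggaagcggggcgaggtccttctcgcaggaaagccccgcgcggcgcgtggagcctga
The capitals in Il21r, TGACCTTT, lie 127 to 120 bases before the start and read AAAGGTCA on the other strand. AAAGGTCA is the binding element of orphan nuclear receptors of the NR4A family, and it contains AGGTCA, the core element that many nuclear receptors share. Both strands of each window were searched for AGGTCA, AAAGGTCA, the STAT motif TTCNNNGAA, the AP-1 motif TGANTCA and the ETS motif GAGGAA. RefSeq windows were found for 7 of the 10 genes, and 1 of these 7, Il21r, held AGGTCA. Among 32851 mouse windows of the same 300 bases, AGGTCA occurred in 16.3%, AAAGGTCA in 1.51%, TTCNNNGAA in 8.3%, TGANTCA in 7.81% and GAGGAA in 28.3%. The Il4ra window held none of the 5 motifs. Besides Il21r, the one match among the 7 was GAGGAA in Il6ra, 70 to 65 bases before its start. A match of letters is not a binding site.

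The libraries held 17250051, 25091019 and 18491943 counts in RXRKO replicates 1, 2 and 3, against 9642889, 7880320 and 14957253 in the WT replicates, so the RXRKO libraries were 1.87 times as deep on average. Levels are given as CPM, read counts scaled to the library total with TMM factors. Rxrb stood at 7.98 to 11.7 CPM in RXRKO, against 64.7 to 68.4 CPM in WT, and Lyz2 at 23.1 to 35.1 CPM in RXRKO, against 14750 to 15910 CPM in WT. Rxra, counted over the whole gene, stood at 104 to 113 CPM in RXRKO and 97.0 to 110.3 CPM in WT, which does not check its loxP-flanked part. Loss of the RXRs, loss of Lyz2 and the presence of Cre cannot be told apart. No member lies on the chromosomes of Rxra, Rxrb or Lyz2, which are 2, 17 and 10. All 7 macrophage markers examined were measured, with summed levels of 7148 to 8369 CPM in RXRKO and 6230 to 7216 CPM in WT, Csf1r being the most abundant. A gene is called when its edgeR quasi-likelihood p, adjusted by Benjamini-Hochberg, is below 0.05. The markers went both ways: Csf1r (log2 fold change 0.40), Itgam (0.65) and Cd14 (1.08) were called higher, Fcgr1 (-0.37) was called lower and 3 were not called, Itgam, Cd14 and Fcgr1 being named after their values were seen. The sex-linked transcripts also differed. Xist, made from the inactive X chromosome, stood at 208.8 to 266.6 CPM in RXRKO and had no read in WT, where 3 reads would give 0.196 to 0.391 CPM. The 4 Y-linked genes examined summed to 106 to 117 CPM in RXRKO, against 217 to 230.3 CPM in WT. This sex-linked difference runs with the genotype. For every gene, on any chromosome, it cannot be told apart from loss of the RXRs, loss of Lyz2 or the presence of Cre.

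Of the 10 chains, Il21r differed most between the genotypes, Il4ra and Il6st were higher in RXRKO by smaller amounts, and none was called lower. By edgeR's quasi-likelihood test with Benjamini-Hochberg adjustment over all tested genes, 3 members lay past the threshold of 0.05 in the higher direction, 0 in the lower and 7 in neither. Beside this, 19.4% of all tested genes lay past it, 9.77% higher and 9.61% lower. All RXRKO libraries lay above all WT libraries in 3 members, Il21r, Il4ra and Il6ra, and below them in 1, Il10ra, while the groups overlapped in 6. Among all tested genes, 19.0% lay wholly above and 17.9% wholly below. The median log2 fold change was 0.05 over the 10 chains and -0.0048 over all tested genes. These counts describe genes selected with the result known and carry no test. In bulk RNA, fewer cells of a type and less RNA per cell cannot be told apart.

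**Figure D1:**
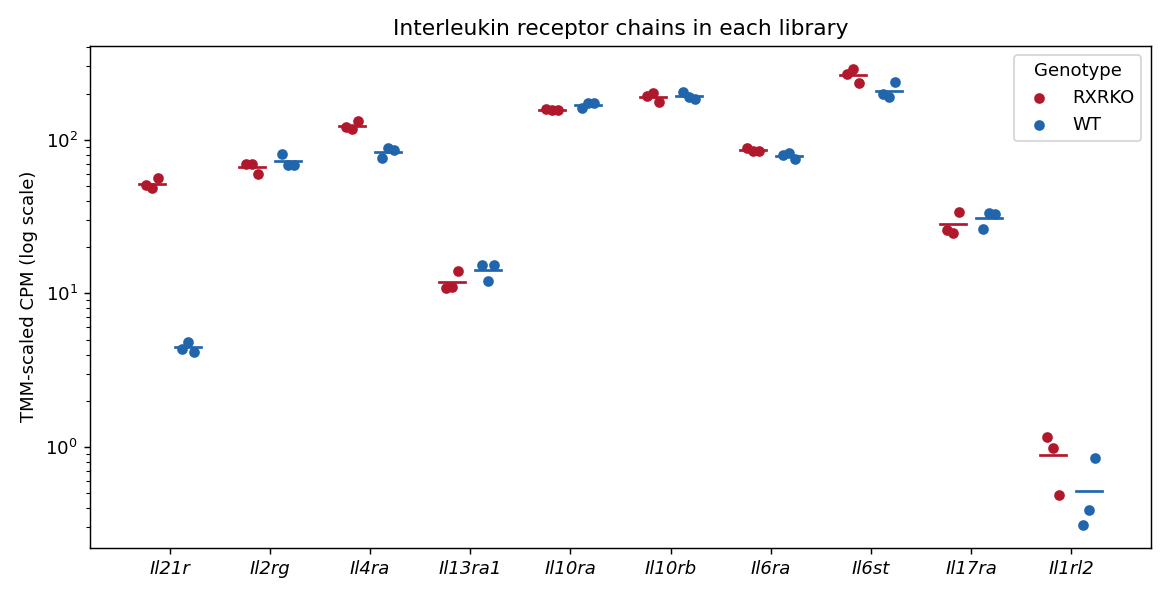
Level of each of the 10 receptor chains (TMM-scaled CPM, log scale) in the 3 RXRKO and 3 WT libraries, with 1 point per library and a bar at the group mean. Il21r is the chain whose groups stand farthest apart, at 48.2 to 56.3 CPM in RXRKO and 4.18 to 4.83 CPM in WT.

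Il21r (ENSMUSG00000030745, chromosome 7, 125603429 to 125633570, plus strand, GRCm38) encodes the chain that binds interleukin 21, a cytokine of helper T cells. It had 51.1, 48.2 and 56.3 CPM in the RXRKO libraries, from 878, 1214 and 1037 reads. In the WT libraries it had 4.36, 4.83 and 4.18 CPM, from 42, 37 and 64 reads. Each RXRKO library lay far above every WT library, and within a genotype the libraries differed little. The means were 51.9 ± 4.13 CPM in RXRKO and 4.45 ± 0.334 CPM in WT (SD, n = 3 each), an 11.7-fold difference, or a log2 fold change of 3.55 (SE 0.129). This was the 18th highest log2 fold change of the 12011 tested genes. The authors' own normalised log2 values were 9.64, 9.55 and 9.78 in RXRKO, against 6.08, 6.24 and 6.02 in WT. The log2 fold change ranged from 3.49 to 3.60 over 14 alternative settings, among them leaving out each library in turn.

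**Figure D2:**
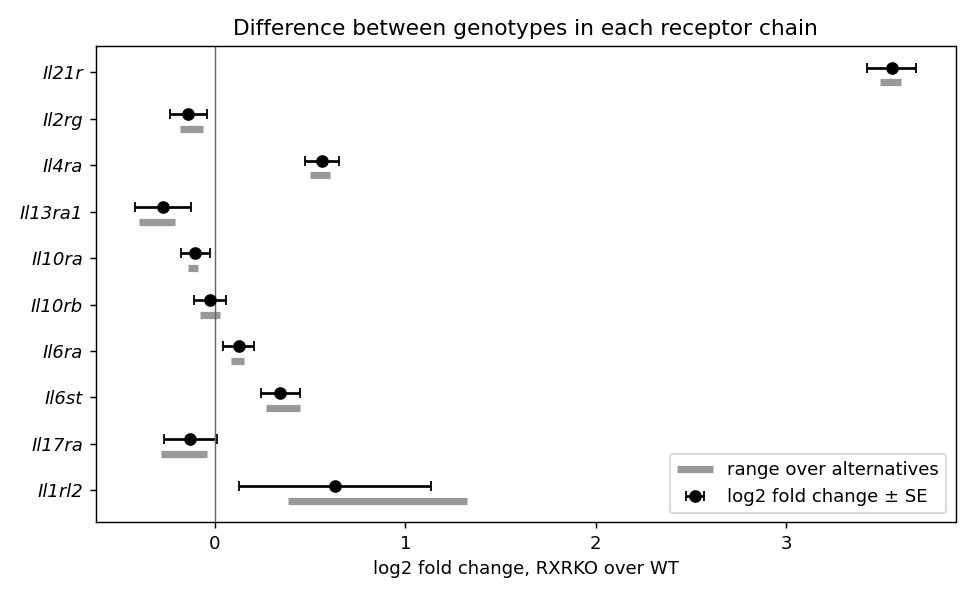
Log2 fold change, RXRKO over WT, of the 10 receptor chains, with its standard error (black) and its range over the alternative settings (grey). Il21r stands at 3.55, Il4ra at 0.57 and Il6st at 0.35, while Il1rl2, at 0.63, has the widest range, 0.38 to 1.32.

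Il21r is best known from lymphocytes, so markers of other marrow-derived cells were examined beside it. The 6 T cell markers summed to 77.3 to 86.8 CPM in RXRKO, against 46.2 to 60.0 CPM in WT. Nearly all of this was Cd28, a costimulatory receptor, which rose in RXRKO (log2 fold change 0.60, edgeR quasi-likelihood Benjamini-Hochberg adjusted p = 0.00147), while each of the other 5, Cd3d, Cd3e, Cd3g, Cd8a and Lck, had at most 15 reads in any library. The 5 B cell markers were lower in RXRKO, at 1.71 to 2.85 CPM, against 4.83 to 5.81 CPM in WT. Cd79b, of the B cell antigen receptor, fell by 1.65 on the log2 scale (edgeR adjusted p = 0.00027), and each of the other 4 had at most 7 reads in a library. The 5 NK cell markers summed to 0.873 to 1.40 CPM in RXRKO and 1.04 to 2.08 CPM in WT, with Prf1 at 0 reads throughout and Nkg7 the most abundant. The 6 dendritic cell markers summed to 1.07 to 2.39 CPM in RXRKO and 0.980 to 2.08 CPM in WT, Zbtb46 among them, and none had enough reads to test. The 5 mast cell and basophil markers summed to 2.04 to 3.14 CPM in RXRKO and 1.87 to 2.48 CPM in WT, with Tpsb2 at 0 reads and Kit the most abundant. The 7 neutrophil markers, led by S100a9, summed to 302 to 390 CPM in RXRKO and 379 to 499 CPM in WT. Among them Cxcr2 was called higher (1.19, edgeR adjusted p = 0.031), Mpo (-0.88, 3.77e-05) and Elane (-1.10, 0.000218) were called lower and 4 were not called, S100a9 included. The 5 fibroblast markers, led by Col1a1, summed to 4.45 to 10.4 CPM in RXRKO and 9.65 to 11.5 CPM in WT. Col3a1 was called lower (-1.91, edgeR adjusted p = 0.00349), and Col1a1 was not called. Cxcr2, Mpo, Elane and Col3a1 are named after their values were seen. Apart from Cd28, Cd79b and Nkg7, no marker of T, B, NK or dendritic cells exceeded 17 reads in any library. The part of Cd28 and of the neutrophil and fibroblast markers in the Il21r difference was not tested.

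Il4ra (ENSMUSG00000030748, chromosome 7, 125552120 to 125579474, plus strand) encodes the chain that binds interleukin 4 and signals through STAT6. It had 122, 117 and 132 CPM in the RXRKO libraries, against 76.1, 88.7 and 86.0 CPM in the WT libraries. The groups did not overlap, and their means were 124 ± 7.8 CPM in RXRKO and 83.6 ± 6.66 CPM in WT (SD, n = 3 each). The log2 fold change was 0.57 (SE 0.0892), a 1.48-fold difference, and it ranged from 0.50 to 0.61 over the 14 alternatives. An antisense gene, Gm44876, overlaps Il4ra, and without strand information reads of the pair cannot be told apart. Genes that overlap Il2rg, Il10ra, Il10rb, Il6ra and Il1rl2 had at most 5 reads in any library.

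The partner chains of these receptors overlapped between the genotypes. Il2rg (ENSMUSG00000031304, chromosome X, 101264378 to 101268255, minus strand), the common gamma chain, had 69.3, 69.1 and 59.9 CPM in RXRKO, against 80.8, 68.7 and 68.8 CPM in WT. RXRKO replicate 3 was the lowest library and WT replicate 1 the highest, and the log2 fold change was -0.14 (SE 0.0981). Il13ra1 (ENSMUSG00000017057, chromosome X, 36112110 to 36171259, plus strand), the chain that completes the type II interleukin 4 receptor, had 10.8, 10.9 and 14.0 CPM in RXRKO, against 15.2, 12 and 15.4 CPM in WT. RXRKO replicate 3 lay above WT replicate 2, and the difference was a log2 fold change of -0.27 (SE 0.149). Both genes are X-linked, and Xist and the Y-linked genes separated the genotypes, as given above. The part of this in their values was not tested. Over the 384 X-linked tested genes without Xist, Il2rg and Il13ra1 among them, the median log2 fold change was -0.0082, with 17.2% called.

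Compared per kilobase of exon within each library, the balance of ligand-binding chain to partner was apart between the genotypes for the interleukin 21 and interleukin 4 receptors, and overlapped for the interleukin 10 and interleukin 6 receptors. The Il21r level per kilobase was 0.529, 0.501 and 0.675 times that of Il2rg in the RXRKO libraries, against 0.0387, 0.0504 and 0.0436 times in the WT libraries. The ratio of Il4ra to Il2rg was 0.698, 0.674 and 0.878 in RXRKO, against 0.374, 0.513 and 0.497 in WT. The groups lay apart for both pairs. The ratio of Il4ra to Il13ra1 was 6.96, 6.61 and 5.86 in RXRKO, against 3.08, 4.57 and 3.45 in WT, also without overlap. The ratio of Il21r to its neighbour Il4ra was 0.756 ± 0.013 in RXRKO, against 0.0965 ± 0.00801 in WT (SD, n = 3 each). For the interleukin 10 pair, Il10ra over Il10rb, the ratio was 0.904 ± 0.0612 in RXRKO and 0.954 ± 0.0933 in WT, and the groups overlapped. For the interleukin 6 pair, Il6ra over Il6st, it was 0.420 ± 0.0454 in RXRKO and 0.492 ± 0.077 in WT, again with overlap. These ratios rest on the values that chose the genes and were not tested, and transcript ratios do not measure the receptors on the cell surface.

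**Figure D3:**
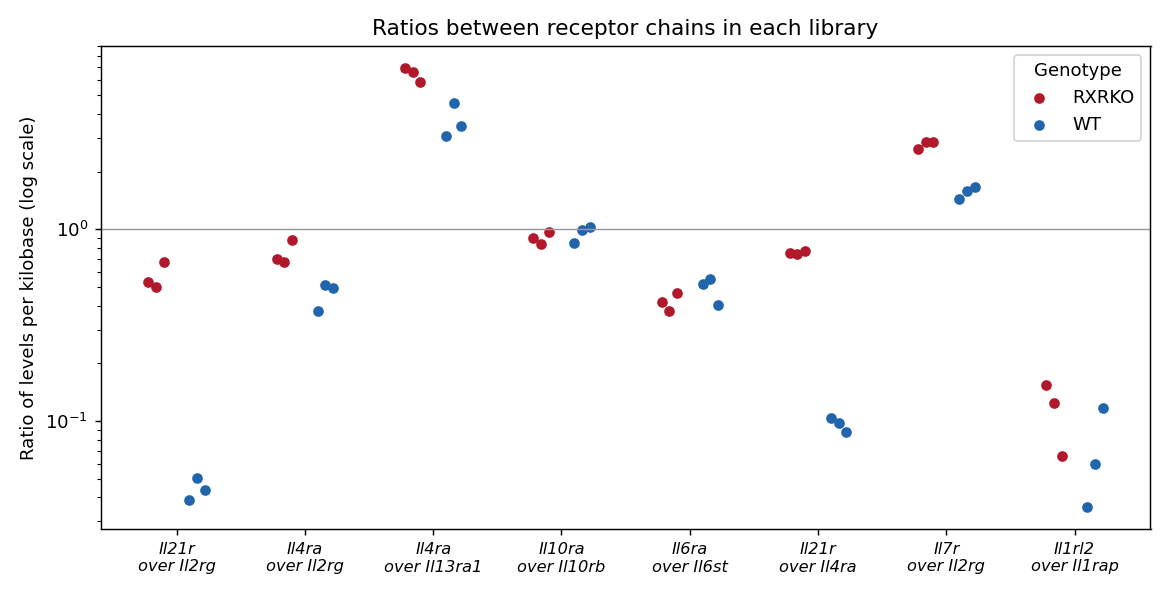
Ratio between the levels per kilobase of paired receptor chains in each library (log scale), RXRKO left of WT in each pair, with a line at equal levels. The ratio of Il21r to Il2rg is 0.501 to 0.675 in RXRKO and 0.0387 to 0.0504 in WT, whereas those of Il10ra to Il10rb and of Il6ra to Il6st overlap between the genotypes.

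The interleukin 10 receptor chains had the highest levels per kilobase among the 10 and differed little between the genotypes. Il10ra (ENSMUSG00000032089, chromosome 9, 45253837 to 45269149, minus strand), the ligand-binding chain, had 159, 157 and 156 CPM in RXRKO, against 160.4, 173 and 173 CPM in WT. All RXRKO libraries lay below all WT libraries, but by little, at a log2 fold change of -0.10 (SE 0.0754). Il10rb (ENSMUSG00000022969, chromosome 16, 91406164 to 91425834, plus strand), which other class II receptors share, had 192, 203 and 176 CPM in RXRKO, against 206, 191 and 184 CPM in WT. Its log2 fold change of -0.03 (SE 0.0841) had no stable sign, turning to 0.03 without RXRKO replicate 3 and to 0.02 without WT replicate 1.

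The interleukin 6 receptor chains had slightly higher means in RXRKO. Il6ra (ENSMUSG00000027947, chromosome 3, 89864059 to 89913196, minus strand), which binds interleukin 6, had 87.8, 84.5 and 84.8 CPM in RXRKO, against 79.5, 81.7 and 74.7 CPM in WT. The groups did not overlap, the log2 fold change was 0.13 (SE 0.0808), and the gene was not called. Il6st (ENSMUSG00000021756, chromosome 13, 112464070 to 112510086, plus strand), the gp130 chain that the interleukin 6 family shares, had 269, 290.0 and 234 CPM in RXRKO, against 198, 189 and 237 CPM in WT. WT replicate 3 lay above RXRKO replicate 3, so the groups overlapped. The log2 fold change was 0.35 (SE 0.104), a 1.27-fold difference. Although it was past the threshold with all libraries, it was no longer past it without RXRKO replicate 1 (0.34) or 2 (0.27) or without WT replicate 1 (0.31) or 2 (0.28). Nor was it past the threshold with the replicate number as a block (0.347).

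The interleukin 17 and interleukin 36 receptor chains did not separate the genotypes. Il17ra (ENSMUSG00000002897, chromosome 6, 120463247 to 120487559, plus strand) had 25.9, 24.8 and 34.0 CPM in RXRKO, against 26.3, 33.1 and 33.0 CPM in WT, a log2 fold change of -0.13 (SE 0.139). Il1rl2 (ENSMUSG00000070942, chromosome 1, 40324610 to 40367562, plus strand) was barely detected, with 20, 25 and 9 reads in RXRKO, against 3, 3 and 13 reads in WT. These are 1.16, 0.992 and 0.489 CPM in RXRKO, against 0.311, 0.391 and 0.849 CPM in WT. WT replicate 3 exceeded RXRKO replicate 3, and a difference was not detectable at this depth (log2 fold change 0.63, SE 0.504). Il1rl2 was the one member that a filter of at least 1 CPM in at least 3 libraries removed.

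Set in order of level per kilobase, the chains other than Il21r ran alike in the genotypes except for Il17ra and Il13ra1, which changed places and overlapped in both. The RXRKO order was Il10rb (49.9 ± 3.58 RPKM), Il10ra (45.0 ± 0.482), Il2rg (27.7 ± 2.24), Il6st (23.8 ± 2.54), Il4ra (20.6 ± 1.3), Il21r (15.6 ± 1.24), Il6ra (9.92 ± 0.209), Il17ra (3.26 ± 0.581), Il13ra1 (3.21 ± 0.479) and Il1rl2 (0.129 ± 0.0515; SD, n = 3 each). In that order the libraries of Il2rg and Il6st, of Il6st and Il4ra, and of Il17ra and Il13ra1 overlapped. The WT order was Il10rb (50.8 ± 2.94 RPKM), Il10ra (48.3 ± 2.12), Il2rg (30.5 ± 2.91), Il6st (18.7 ± 2.27), Il4ra (13.9 ± 1.11), Il6ra (9.10 ± 0.411), Il13ra1 (3.83 ± 0.519), Il17ra (3.56 ± 0.456), Il21r (1.34 ± 0.1) and Il1rl2 (0.0759 ± 0.0426; SD, n = 3 each). There the libraries of Il10rb and Il10ra and of Il13ra1 and Il17ra overlapped. Il21r thus stood 6th in RXRKO and 9th in WT. Among 12003 tested genes with a length it ranked 2929 in RXRKO and 9518 in WT.

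The neighbours of Il21r on chromosome 7 were examined because Il4ra ends 23.95 kb before Il21r starts. On the far side, Gtf3c1, a subunit of a general transcription factor used by RNA polymerase III, lies 7.38 kb from Il21r. It had a log2 fold change of 0.25 (edgeR quasi-likelihood Benjamini-Hochberg adjusted p = 0.15), with overlapping groups. The next gene, D430042O09Rik, stood at 0.33 (edgeR adjusted p = 0.126) and passed the threshold only without WT replicate 3 (0.54). Before Il4ra lie Nsmce1, of the SMC5 and SMC6 complex, at -0.16 (edgeR adjusted p = 0.495), and Kdm8 at 0.00 (edgeR adjusted p = 0.996), whose sign turned under 3 alternatives. None of these 4 genes was called, and the 2 receptor genes between them were. The 2 receptor genes were chosen with this comparison known, so their contrast with the neighbours carries no test. Around Il1rl2 on chromosome 1, Il1rl1, the interleukin 33 receptor chain 62.0 kb away, was higher in RXRKO (log2 fold change 2.12, edgeR adjusted p = 4.76e-05), while Il18rap (0.32, adjusted p = 0.287), Map4k4 (0.11, 0.425) and Creg2 (0.15, 0.407) were not called.

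**Figure D4:**
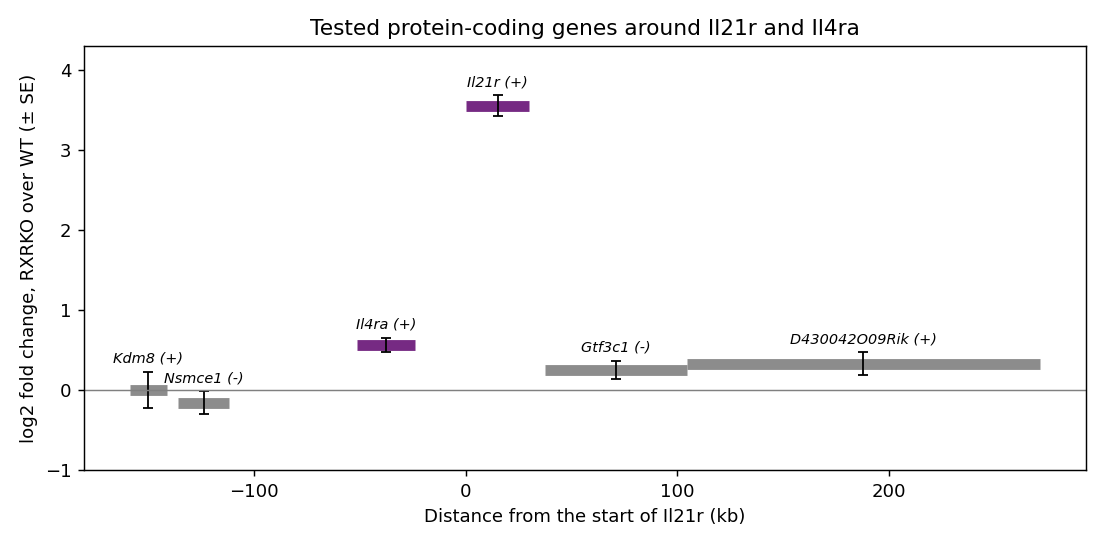
Log2 fold change, RXRKO over WT, with its standard error, of the tested protein-coding genes around Il21r, drawn at their distance from the start of Il21r in kilobases, with strand in brackets. Il21r (3.55) and Il4ra (0.57), both chosen with this comparison known, stand above their neighbours. Kdm8, Nsmce1, Gtf3c1 and D430042O09Rik range from -0.16 to 0.33.

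The genes whose pattern over the 6 libraries was most like that of Il21r were found by the root mean square difference of log2 CPM, each gene set against its own WT mean. The nearest was Cxcl14, a chemokine gene, at 0.187, followed by Ptgs1, which encodes cyclooxygenase 1, at 0.209. Cxcl14 had 20.6, 19.9 and 22.9 CPM in RXRKO, against 1.87, 2.48 and 1.37 CPM in WT. Ptgs1 had 134, 131 and 146 CPM in RXRKO, against 10.7, 9.65 and 9.14 CPM in WT. Enpp4 (0.451), Hmga1b (0.494) and Gfra2 (0.504), which encodes a receptor for neurturin, came next, and Hmga1b shares its sequence with Hmga1 so that its reads are uncertain. Ptgs1 lies on the chromosome of Rxra and Enpp4 on that of Rxrb, whereas Il21r shares its chromosome with no modified gene. The measure describes 6 libraries of 2 groups and was not tested.

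Of 40 other genes for chains of interleukin, interferon and related receptors, 21 were tested, of which 8 were higher in RXRKO, 1 was lower and 12 were not called. The called share was 42.9%, beside 19.4% of all tested genes, and the median log2 fold change was 0.17. Like the other gene lists, this one was drawn up with earlier results of these data known, so its called share carries no test. Csf2rb2 and Csf2rb rose. Csf2rb encodes the beta chain that the interleukin 3, interleukin 5 and GM-CSF receptors share, and Csf2rb2 a beta chain specific to interleukin 3. Csf2rb2 had 447, 443 and 454 CPM in RXRKO, against 219, 210.0 and 211 CPM in WT (log2 fold change 1.07, edgeR quasi-likelihood Benjamini-Hochberg adjusted p = 9.28e-07). Csf2rb stood at 411 ± 20.4 CPM in RXRKO and 253 ± 5.88 CPM in WT (SD, n = 3 each; log2 fold change 0.70, edgeR adjusted p = 4.33e-05). The 2 genes are closely similar in sequence, so the split of reads between them is uncertain. Il7r, which pairs with Il2rg to bind interleukin 7, had 354, 385 and 335 CPM in RXRKO, against 229, 212 and 225 CPM in WT (log2 fold change 0.69, edgeR adjusted p = 8.26e-05). Its ratio to Il2rg per kilobase was 2.78 ± 0.139 in RXRKO and 1.57 ± 0.112 in WT (SD, n = 3 each). Il1rl1 had 5.12, 6.87 and 5.92 CPM in RXRKO, against 1.25, 1.3 and 1.5 CPM in WT. These 4 genes stayed past the threshold under all 14 alternatives.

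The other calls among these receptors were smaller or rested on fewer reads. Csf2ra (0.51), Crlf2 (0.39), Il12rb1 (1.45) and Ifnar1 (0.31) were also called higher and are named here after their values were seen. Il12rb1, of the interleukin 12 receptor, rested on 63 reads over the RXRKO libraries and 12 over the WT libraries. Il12rb2, its partner, was called lower, at -0.67 (edgeR quasi-likelihood Benjamini-Hochberg adjusted p = 0.0296), with overlapping groups. That call was lost without RXRKO replicate 1 (-0.62) or 3 (-0.55) or without WT replicate 1 (-0.56) or 3 (-0.59). It was also lost with the replicate number as a block (-0.67). The count of called genes was 5 without RXRKO replicate 1 and 5 without WT replicate 1. By family, 3 of 4 tested chains of the beta-c group, 2 of 3 of the gamma-c group, 1 of 5 of class II and 1 of 4 of the interleukin 1 family were called, all higher, and 2 of 5 of the gp130 and interleukin 12 group, 1 in each direction. None of the 4 other interleukin 17 receptor genes had enough reads to test. Il1rap, the partner of Il1rl2, stood at 12.8 ± 0.429 CPM in RXRKO and 12.6 ± 1.87 CPM in WT (SD, n = 3 each) and is named after its values were seen.

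**Figure D5:**
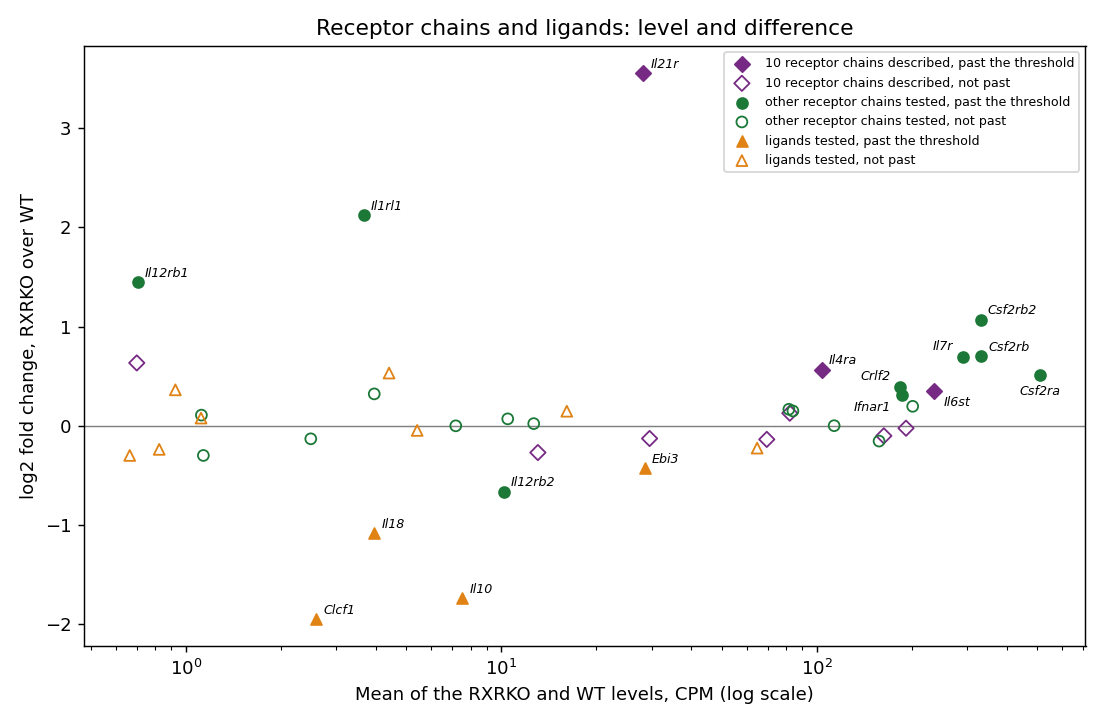
Log2 fold change, RXRKO over WT, against the mean CPM of both genotypes (log scale) for the 10 receptor chains, the 21 other receptor chains tested and the 12 ligands tested, with filled symbols past the threshold and open symbols not past it. Il21r stands at 3.55, the called other receptors lie between -0.67 and 2.12, and the called ligands lie below 0, down to -1.95.

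Most of the ligand genes listed had too few reads to test, and those called were lower. The list counts the antagonists Il1rn and Il1f5 and the binding protein Il18bp among the ligands. It holds no interferon, Csf2, Il3 or Il5, so it does not cover every receptor above. Of 37 ligand genes, 12 were tested, 0 were called higher, 4 lower and 8 neither, a called share of 33.3% beside 19.4% of all tested genes (9.61% lower), with a median log2 fold change of -0.23. Il21 had 0 reads in all 6 libraries, where 3 reads would give 0.119 to 0.175 CPM in RXRKO and 0.196 to 0.391 CPM in WT, so its receptor chain was measured without its ligand being detectable at this depth. Il10, the ligand of Il10ra and Il10rb, had 4.13, 3.57 and 2.77 CPM in RXRKO, against 12.7, 8.74 and 13.2 CPM in WT (log2 fold change -1.74, edgeR quasi-likelihood Benjamini-Hochberg adjusted p = 7e-05). Clcf1, a gp130 cytokine, had 1.51, 1.19 and 0.489 CPM in RXRKO, against 4.57, 3.52 and 4.25 CPM in WT (-1.95, edgeR adjusted p = 0.00132). Il18, of the interleukin 1 family, stood at 2.55 ± 0.806 CPM in RXRKO and 5.37 ± 1.15 CPM in WT (SD, n = 3 each; -1.08, edgeR adjusted p = 0.0111). Ebi3, a subunit of interleukin 27, was at -0.43 (edgeR adjusted p = 0.0329) and was no longer called without RXRKO replicate 2 (-0.46) or 3 (-0.30) or WT replicate 1 (-0.44) or 3 (-0.40). It was also not called with the replicate number as a block (-0.44). In all, 8 of the 37 had no read in any library.

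Downstream of the class I and class II chains, most JAK, STAT and inhibitor genes were not called. Of 25 such genes, 23 were tested, 2 were higher, 2 lower and 19 neither, a called share of 17.4% beside 19.4% of all tested genes. Socs3, a STAT3-induced inhibitor of gp130 signalling, had 1.16, 1.67 and 1.20 CPM in RXRKO, against 3.42, 3.26 and 3.72 CPM in WT (log2 fold change -1.35, edgeR quasi-likelihood Benjamini-Hochberg adjusted p = 0.00299). Stat4, the STAT of the interleukin 12 receptor, stood at 1.87 (edgeR adjusted p = 0.013) on 96 reads in RXRKO and 14 in WT, and the call was lost without WT replicate 1 (1.48), while the log2 fold change was 2.70 without WT replicate 3. Jak3, the kinase bound to the common gamma chain, had 22.8, 23.8 and 22.8 CPM in RXRKO, against 27.0, 29.2 and 32.1 CPM in WT (-0.35, edgeR adjusted p = 0.0341). Its call was lost without any 1 library other than WT replicate 1, at -0.28 to -0.37. Counting every kind of alternative, it was lost under 7 of 14. Stat3, through which interleukins 6, 10 and 21 signal, was at 0.26 (edgeR adjusted p = 0.0472) and lost its call without any 1 library other than WT replicate 3, at 0.22 to 0.27. Counting every kind of alternative, Stat3 lost its call under 8 of 14. Of 12 adaptors and kinases of the interleukin 1 and 17 pathways, all tested, Irak2 alone was called, higher in RXRKO at 0.39 (edgeR adjusted p = 0.00727), and its call was lost without RXRKO replicate 1 (0.37). That is 8.33% of the list, beside 19.4% of all tested genes.

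Genes known to respond to interleukin 4 and STAT6 in mouse macrophages went in both directions. Of 19, 11 were tested, 3 were higher, 3 lower and 5 neither, a called share of 54.5% beside 19.4% of all tested genes, with a median log2 fold change of 0.15. The other 8 had at most 14 reads in any library and could not be tested. Of these, 2, Retnla and Ccl17, had no read in either genotype, and Arg1 had at most 2 reads in a library. These 3 are named after their values were seen. Klf4, a transcription factor, had 13.8, 15.3 and 12.9 CPM in RXRKO, against 8.72, 7.17 and 7.84 CPM in WT (log2 fold change 0.82, edgeR quasi-likelihood Benjamini-Hochberg adjusted p = 0.00129). Irf4, another, was at 1.02 (edgeR adjusted p = 0.0074), lost without WT replicate 1 (0.93). Tgm2, a transglutaminase, had 46.5, 47.2 and 43.9 CPM in RXRKO, against 63.9, 74.2 and 75.8 CPM in WT (-0.64, edgeR adjusted p = 0.00044). Mrc1, the mannose receptor, stood at 488 ± 25.7 CPM in RXRKO and 672 ± 20.6 CPM in WT (SD, n = 3 each; -0.46, edgeR adjusted p = 0.00112). The other calls, Egr2 and Ccl22, were lost under several alternatives. Egr2 (0.29, edgeR adjusted p = 0.0279) was lost without RXRKO replicate 1 or 2 or WT replicate 1 or 3, at 0.24 to 0.31. It was also lost with the replicate number as a block (0.285). Ccl22, a chemokine gene (-1.40, edgeR adjusted p = 0.0303), was lost without any 1 library other than WT replicate 3, at -1.13 to -1.42. It was also lost with the replicate number as a block (-1.405) and with no filter on low counts (-1.403).

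Genes known to respond to interleukin 10 and STAT3 in macrophages also had calls in both directions. Of 14, 13 were tested, 3 were higher, 1 lower and 9 neither, a called share of 30.8% beside 19.4% of all tested genes, with a median log2 fold change of -0.09. Nfil3, a transcription factor, had 8.61, 9.33 and 9.62 CPM in RXRKO, against 5.29, 5.35 and 5.55 CPM in WT (log2 fold change 0.76, edgeR quasi-likelihood Benjamini-Hochberg adjusted p = 0.00345). The gene called lower was Socs3, given above. Sbno2 (0.29, edgeR adjusted p = 0.0247) lost its call without RXRKO replicate 1 or 2 or WT replicate 1 or 2, at 0.25 to 0.31. Counting every kind of alternative, its call was lost under 5 of 14. Cd163, a scavenger receptor (0.77, edgeR adjusted p = 0.0447), lost its call without RXRKO replicate 2 (0.51) or without WT replicate 1 (0.84), 2 (0.76) or 3 (0.69). Cd163 was also not called by DESeq2 (0.76), limma-voom (0.76) or limma on the authors' values (0.70), or with the replicate number as a block (0.71).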

How the data were processed

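Polyadenylated RNA of 3 RXRKO and 3 WT macrophage cultures was sequenced from 100 ng of total RNA with a single-end 75-cycle kit, per the labels. Per the submitters' processing notes, TopHat2 2.0.7, DESeq and the build mm10 (GRCm38) were used. How reads were counted, on which annotation and whether by strand, is not given in the sources used here. The authors deposited raw counts per Ensembl gene (45193 genes), which were used as they stand. The authors also deposited normalised log2 values. Compared with the counts, each such column is a log2 count plus a fixed offset, equal on the linear scale to 1.08 to 1.09 times the inverse size factor, with genes of 1 read listed at 0 in the RXRKO columns (2422 to 3522 genes) and not in the WT columns. No column of values was left unused.

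The robust quasi-likelihood F test of edgeR 4.0.16 in R 4.3.3 was fitted to the counts with TMM factors and the genotype alone in the model. The 12011 genes kept by filterByExpr (minimum count 10, minimum total 15) were adjusted together by Benjamini-Hochberg with a threshold of 0.05. SEs were obtained by dividing the size of the log2 fold change by the square root of F, and so restate that test. Levels per kilobase (RPKM) divide TMM-scaled CPM by the union of exons in GENCODE M21 (GRCm38). Symbols were matched for 45106 genes. Promoter windows came from RefSeq (GRCm38.p6). A floor of 3 reads was used where a count was 0, and it covers counting error only. The fitting scripts were tested on simulated data.

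The members, the gene lists and the naming rule were chosen with earlier results of these data known. The rule named all members, the modified and sex-linked genes, up to 4 called genes per direction in each list by smallest adjusted p, the most abundant marker of each cell type, the 2 nearest tested coding genes on each side of Il21r, Il4ra and Il1rl2, and the 5 genes most like Il21r. Sex-linked genes other than Xist were given as sums. Alternatives were RLE and upper-quartile factors, no filter, a filter of at least 1 CPM in at least 3 libraries, limma-voom (limma 3.58.1), limma on the authors' values as log2(linear value + 1), DESeq2 1.42.0, the replicate number as a block, the longest transcript for lengths, and leaving out each library.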

Additional observations from a re-analysis of the deposited data

How the results depend on the processing

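Of 823 log2 fold changes (59 named genes, each under up to 14 alternatives), 755 kept their direction and their side of the threshold, 60 lost a call, 2 gained one and 6 changed sign. The changes of sign were those of Il10rb, to 0.0302 without RXRKO replicate 3 and 0.0181 without WT replicate 1 (range with 1 library left out -0.0753 to 0.0302), of Col1a1, to 0.0367 without RXRKO replicate 2 (range -1.23 to 0.0367), and of Kdm8, to -0.0251 with limma-voom, -0.111 without RXRKO replicate 1 and -0.0816 without WT replicate 2 (range -0.111 to 0.0647). With all libraries 2327 genes were called, and between 1286 and 2607 when 1 library was left out, the lowest without WT replicate 1, and 1383 without RXRKO replicate 1. With the replicate number as a block 1375 were called. Called members numbered 2 to 3 under every alternative. Of the other receptor chains 9 were called, 5 with the block, and 5 to 8 with 1 library left out. Whether replicate numbers pair the samples was not settled. Deviations of same-numbered libraries correlated between -0.232 and 0.0426, those of differently numbered ones between -0.0927 and 0.262. These few values are taken relative to the mean of each small group and depend on one another, so they cannot exclude a pairing. The longest transcript in place of the exon union raised levels per kilobase, for example of Il21r to 20.8 RPKM in RXRKO and 1.78 RPKM in WT, and put Il17ra (3.97) above Il13ra1 (3.83) in WT. The median of all genes moved to 0.12 with no filter on low counts. Low read numbers limit Il1rl2, and 25 ligands and 19 other receptor chains could not be tested for lack of reads.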

Other observations

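Soluble forms of Il6ra and of other receptor chains are released from the cell surface by proteases, and some genes of that machinery were examined. Of 5 genes for proteases of receptor shedding and their regulators, 4 were tested, 1 was higher in RXRKO, 1 lower and 2 neither, beside 19.4% of all tested genes called. Rhbdf2, which carries the protease ADAM17 to the cell surface, had 84.3, 78.5 and 87.6 CPM in RXRKO, against 54.8, 54.0 and 66.8 CPM in WT (log2 fold change 0.51, edgeR quasi-likelihood Benjamini-Hochberg adjusted p = 0.0036). Its relative Rhbdf1 stood at 4.71 ± 0.861 CPM in RXRKO and 8.16 ± 1.9 CPM in WT (SD, n = 3 each; -0.81, edgeR adjusted p = 0.0147). The call for Rhbdf1 was lost without RXRKO replicate 1 (-0.70) or WT replicate 3 (-0.58). Adam10 and Adam17 were the 2 tested genes not called.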
